A study of Oryctolagus cuniculus with 12 samples.

Results

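The 9 genes described here are TRIM25 and 8 genes of the interferon response: ISG15, DDX58, IFIH1, STAT2, IRF9, IRF1, IRF7 and MX1. They are 9 of 29076 genes in a table of rabbit cornea expression. They were chosen by name with results of these libraries known: TRIM25 was selected on its higher level in the blue light and GL groups than in control, and the other genes by their place in the interferon pathway around it. The series holds 12 RNA-seq libraries of cornea, 3 in each of 4 groups: Ctrl (control), BL (blue light), GL and RL, the last pair being names that the labels do not spell out. All 12 libraries carry the same entries for age (6 months), a normal diet and an illumination period of 6 weeks, the controls included, and the labels give no wavelength or light intensity. They name no strain, transgene or drug, and do not say whether the 3 libraries of a group came from separate animals, so the spread used below is the spread between libraries and may be technical.

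Interferons are secreted signals of antiviral defence. Cytosolic RNA sensors such as RIG-I (the product of DDX58) and MDA5 (the product of IFIH1) recognise foreign RNA and switch on interferon genes, and TRIM25 is a ubiquitin ligase that attaches ubiquitin chains to RIG-I and promotes its signalling. Secreted interferon acts through its receptors, Janus kinases and STAT proteins. STAT2 and IRF9 are subunits of the transcription factor ISGF3, which switches on interferon-stimulated genes, among them ISG15, MX1 and the sensors themselves. The cornea is an exposed surface, and its epithelial cells and stromal fibroblasts can mount this response.

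The libraries held 40.9 to 64.7 M (mega) estimated counts. Low counts piled up at steps of about 3.83, so 1 sequenced fragment was worth about that many counts and the libraries held about 10.7 to 16.9 M fragments. A set of 5 libraries (the 3 BL libraries, Ctrl replicate 1 and RL replicate 1) had 2389 to 2563 genes at counts of 1 to 20, against 767 to 1461 in the other 7. BL lies wholly in the first set and GL wholly in the second, so BL and GL cannot be told apart from the library set. Marker genes of corneal epithelium (6 of 6 found), stroma (5 of 6) and endothelium (6 of 6) had counts in every library, as the cornea label requires. Rod photoreceptor transcripts stood highest in GL replicate 3, BL replicate 1 and Ctrl replicate 2, with summed values of 251, 92.1 and 53.7 FPKM, fragments per kilobase of gene length scaled to sequencing depth, against 4.68 to 19.6 in the other 9 libraries. Lens transcripts were abundant in all libraries, with summed values from 827 FPKM in RL replicate 1 to 17200 in BL replicate 1. In BL replicate 1 the corneal epithelium markers summed to 11400 FPKM. All 9 genes passed the filter on low counts that left 18171 genes for testing.

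TRIM25 was the gene of the group whose level differed most between the groups relative to the scatter within them. Its levels in BL and GL chose it, so this rank is a description. Its values in the 3 control corneas were 5.13, 2.92 and 2.85 FPKM. In BL they were 8.50, 8.74 and 7.75 FPKM, and in GL 7.83, 7.17 and 7.66 FPKM. In RL they were 4.58, 4.45 and 4.45 FPKM. Every BL and GL library was above every control and every RL library, while Ctrl replicate 1 was above all 3 RL libraries and the BL and GL values overlapped. The order of the group means was therefore BL, GL, RL, control, and of the neighbours in that order only GL and RL were separated by a gap. Of all tested genes, 4.74% had every BL library and 7.67% every GL library above every control. The shares with BL or GL above every RL library were not counted, so little can be read from that gap. The means were 8.33 ± 0.515 FPKM in BL, 7.55 ± 0.339 in GL, 4.50 ± 0.0735 in RL and 3.63 ± 1.30 in control (SD, n = 3 each).

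Against control, the mean TRIM25 level was 2.29 times as high in BL, 2.08 times in GL and 1.24 times in RL. The edgeR log2 differences were 1.20 ± 0.22 (SE) for BL, 1.11 ± 0.22 for GL and 0.38 ± 0.21 for RL. These values chose the gene, so they are a description and carry no test. Between BL and GL the log2 difference of TRIM25 was 0.09 ± 0.21, with a 95% interval from -0.38 to 0.55 and an adjusted p of 0.892 in edgeR's quasi-likelihood test. Choosing a gene that is high in both groups favours a small difference between them, so this value is a description too. BL and GL also lie in different library sets, and with the set as a term in the fit the difference was -0.32 ± 0.26. That term rests on 1 library of the BL set in control and 1 in RL. There TRIM25 was 5.13 against a mean of 2.88 FPKM in control, but 4.58 against 4.45 in RL. The value with the term is thus an extrapolation. BL stood 0.82 ± 0.22 and GL 0.73 ± 0.22 above RL on the log2 scale, in fits that use the same BL and GL libraries that selected the gene. The TRIM25 values rested on 589 to 2217 counts, about 154 to 579 fragments per library, and its mean of 6.00 FPKM lay at the 51.6th percentile of the genes tested. TRIM25 lies on chromosome 19, from 31133258 to 31150195 on the plus strand, in the coordinates of the deposited table, whose sequence identifiers are those of the OryCun2.0 rabbit assembly.

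**Figure D1:**
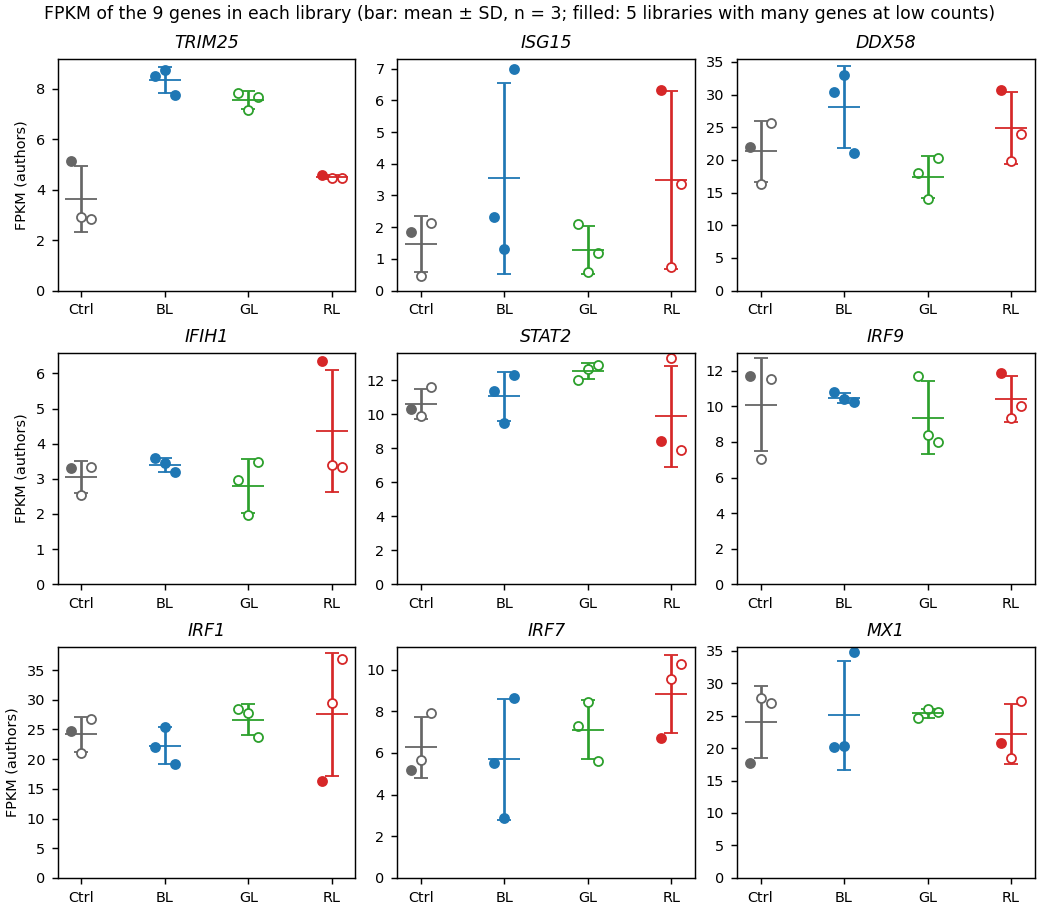
FPKM (vertical axes, from 0) of TRIM25 and the 8 other genes in each of the 12 libraries, grouped as Ctrl, BL, GL and RL. Points are libraries, bars the mean ± SD of 3 libraries, and filled points the 5 libraries with many genes at low counts. TRIM25, selected on its higher level in BL and GL, is the only one of the 9 genes in which the BL and GL libraries both stand clear of every control. At most 4.74% of all tested genes can show that pattern.

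Ctrl replicate 1 carried the highest TRIM25 level of the controls and belonged to the same set of libraries as BL. Within that set the BL mean was 8.33 FPKM against 5.13 in that single control, a ratio of 1.62, and RL replicate 1 was at 4.58 FPKM, a ratio of 0.892. Among the other 7 libraries the GL mean was 7.55 FPKM against 2.88 over 2 controls, a ratio of 2.62, and the RL mean was 4.45 FPKM, a ratio of 1.54. BL and GL were thus above the controls of their own set, by a smaller ratio in BL. With the library set as a term in the fit, the log2 difference of TRIM25 from control was 0.97 for BL and 1.28 for GL. Both values are extrapolations, since the term rests on the control and RL libraries alone. Without Ctrl replicate 1 the difference was 1.53 for BL and 1.43 for GL, and without the 3 libraries with photoreceptor transcripts 1.08 and 0.97. The difference kept its sign in all 23 alternatives for BL and all 24 for GL and for RL. The log2 ranges were 0.97 to 1.53, 0.92 to 1.43 and 0.23 to 0.71. The BL and GL values chose the gene, with every library above every control. Their sign was thus nearly fixed beforehand and supports nothing further.

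**Figure D2:**
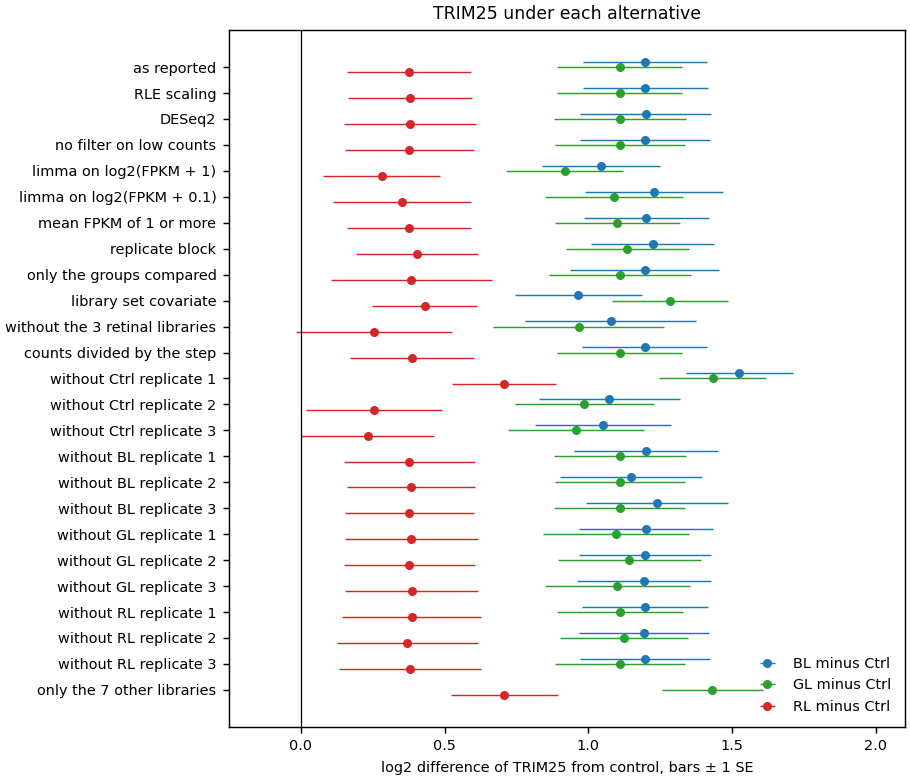
log2 difference of TRIM25 from control (horizontal axis, bars ± 1 SE) under the reported analysis and each alternative (rows) for BL, GL and RL. All points lie to the right of 0, between 0.23 and 1.53. The BL and GL contrasts chose the gene, so their side of 0 was nearly fixed beforehand. For BL and GL the highest value is the one without Ctrl replicate 1.

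None of the 9 genes passed the threshold of an adjusted p of 0.05 in any of the 6 comparisons between groups by edgeR, and few genes did in the whole table. The share of all tested genes called was 0.0165% for BL against control, 0.055% for GL against control and 0.011% for RL against control. It was 0.0495% for BL against GL, 0.011% for BL against RL and 0.0715% for GL against RL. At an unadjusted p under 0.05, the number of the 9 genes was 1 in BL and 1 in GL against control, each time TRIM25, and 0 in RL. It was 1 for BL against GL (DDX58), 1 for BL against RL (TRIM25) and 3 for GL against RL (TRIM25, DDX58 and IFIH1). Of all tested genes, 3.26%, 8.1% and 4.74% were under that p in BL, GL and RL against control, and 14.9%, 5.14% and 8.6% in the other comparisons in the order given. DESeq2 called TRIM25 in BL and in GL against control and no other of the 9 genes in any comparison, beside 0.17% and 0.959% of the genes to which it gave an adjusted p in that pair of comparisons. Its share was 0.404% for RL against control, 2.53% for BL against GL, 0.431% for BL against RL and 1.31% for GL against RL. The test by limma on log2(FPKM + 1) called none of the 9. The TRIM25 entries among these counts repeat the contrasts that selected the gene and support nothing further.

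Of the 8 other genes, 0 had both the BL and the GL libraries above every control, the pattern that selected TRIM25. The share of all tested genes with both was not counted. It cannot exceed the 4.74% with every BL library above every control, so little can be read from this 0. In BL 7 of 9 were above control by their fitted value, with a median log2 difference of 0.06 against 0.01 over all tested genes. The same figures were 5 of 9 and 0.13 against -0.02 in GL, and 7 of 9 and 0.29 against 0.00 in RL. Without TRIM25 the medians were 0.06, 0.03 and 0.27. The 3 comparisons share the control libraries. In BL 1 of the 9 genes (TRIM25) had every library above every control, beside 4.74% of all tested genes. In GL 2 did (TRIM25 and STAT2), beside 7.67%, and in RL 0 did, beside 2.65%. None had every library below every control in BL, GL or RL, where the shares of all tested genes were 4.3%, 10.8% and 6.16%. Since TRIM25 was chosen on the first pair of contrasts, these counts add only STAT2.

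**Figure D3:**
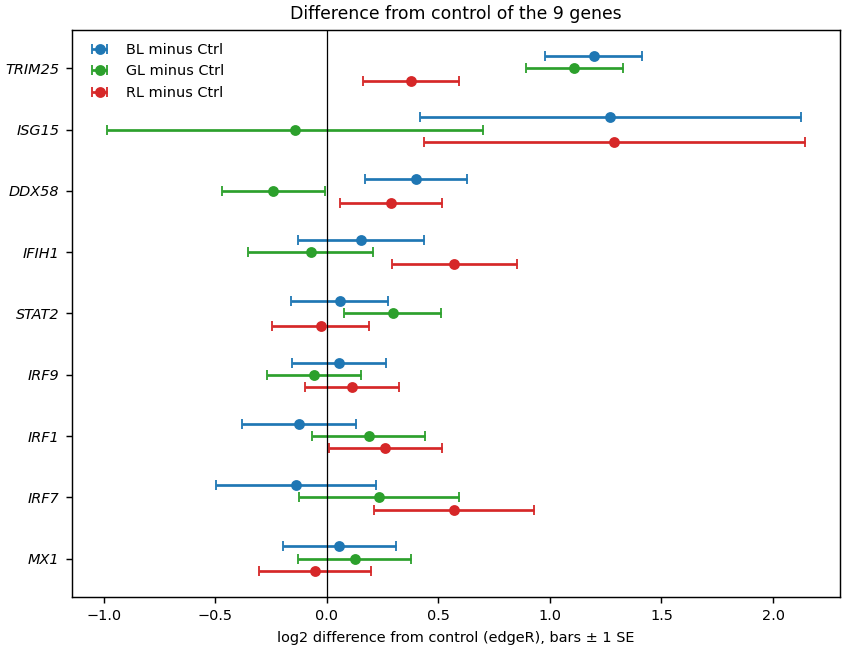
log2 difference from control (horizontal axis, edgeR, bars ± 1 SE, 3 libraries a group) of each of the 9 genes in BL, GL and RL. TRIM25 lies far from 0 relative to its error in BL and GL, the contrasts that chose it, so this is a description. ISG15 has the widest bars, and the other genes lie within about 0.6 of 0.

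The sensor that TRIM25 modifies, DDX58, was well expressed, and its groups did not fall in the order of TRIM25. Its control values were 22.0, 16.3 and 25.6 FPKM. In BL they were 30.3, 33.0 and 21.0 FPKM, and in GL 17.9, 14.0 and 20.3 FPKM. In RL they were 30.8, 19.9 and 23.9 FPKM. BL and control overlapped through BL replicate 3, GL and control overlapped too, and every BL library was above every GL library, as for 16.5% of all tested genes. The log2 differences of DDX58 from control were 0.40 ± 0.23 in BL (adjusted p = 1, edgeR), -0.24 ± 0.23 in GL (adjusted p = 0.800, edgeR) and 0.29 ± 0.23 in RL (adjusted p = 1, edgeR). Between BL and GL the difference was 0.64 ± 0.23, an unadjusted p of 0.0160 in edgeR that did not pass over all genes (adjusted p = 0.268). With the library set as a term this value was 0.40 (adjusted p = 0.875, edgeR). RL replicate 1, the one RL library of the set that holds BL, was the RL library with the highest DDX58. Ctrl replicate 1 and BL replicate 3, of the same set, were below Ctrl replicate 3, which is outside it. BL and GL cannot be told apart from the set, and its part in these DDX58 levels was not tested. GL was 0.53 ± 0.23 below RL (adjusted p = 0.580, edgeR). So GL, in which TRIM25 was high, had the lowest DDX58 mean of the 4 groups, 17.4 ± 3.19 FPKM (SD, n = 3).

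The other RNA sensor, IFIH1, was expressed at a lower level, with control values of 3.31, 2.53 and 3.33 FPKM. BL libraries had 3.58, 3.45 and 3.19 FPKM and GL libraries 2.97, 1.97 and 3.46 FPKM. RL libraries had 6.37, 3.40 and 3.33 FPKM. Values of all 4 groups overlapped, and RL replicate 1 stood alone above the other 11 libraries. The log2 difference of RL from control was 0.57 ± 0.28 (adjusted p = 1, edgeR) and 0.23 without RL replicate 1. GL was 0.64 ± 0.28 below RL (unadjusted p = 0.0399, adjusted p = 0.580, edgeR), and 0.30 below it without that library.

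ISG15 is the ubiquitin-like protein that interferon induces and that is coupled to target proteins. Its control values were 1.84, 0.470 and 2.12 FPKM, the BL values 2.32, 1.31 and 6.98 FPKM, the GL values 2.08, 0.585 and 1.19 FPKM and the RL values 6.34, 0.730 and 3.37 FPKM. The groups overlapped, with BL replicate 3 and RL replicate 1 far above the other libraries of their groups. ISG15 was the most variable of the 9 genes, with a ratio of 14.8 between its highest and lowest library. It was also the shallowest, with 27 to 403 counts, about 7.05 to 105 fragments. Its mean was 2.40 times the control mean in BL and 2.36 times in RL, yet the log2 differences, 1.27 ± 0.85 in BL and 1.29 ± 0.85 in RL, had an adjusted p of 1 in edgeR. Without BL replicate 3 the BL value was 0.30, and without RL replicate 1 the RL value was 0.57. GL, with a log2 difference of -0.14 ± 0.84 (adjusted p = 0.980, edgeR), did not differ from control beyond the scatter, and its 95% interval ran from -1.97 to 1.69, so changes of several fold in either direction would not have been detectable.

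The ISGF3 subunits varied less between libraries, with ratios of 1.68 between the highest and the lowest library for STAT2 and for IRF9. STAT2 had 10.3, 9.90 and 11.6 FPKM in control and 12.0, 12.7 and 12.9 FPKM in GL. It had 11.4, 9.52 and 12.3 FPKM in BL and 8.44, 13.3 and 7.92 FPKM in RL. All GL libraries were above all controls, by a small margin, and the BL and RL libraries overlapped both. The GL mean was 1.18 times the control mean, and the log2 difference of 0.29 ± 0.22 did not pass the test (adjusted p = 0.719, edgeR). IRF9, the subunit that gives ISGF3 its DNA specificity, had 11.7, 7.06 and 11.5 FPKM in control, 10.8, 10.4 and 10.3 in BL, 11.7, 8.38 and 7.98 in GL and 11.9, 9.37 and 10.0 in RL. The 4 groups of IRF9 overlapped, and its log2 differences from control were 0.06, -0.06 and 0.11 in BL, GL and RL, each ± 0.21 (adjusted p = 1, 0.966 and 1, edgeR).

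Among the interferon regulatory factors, IRF1, which binds the promoters of interferon and antigen presentation genes, had control values of 24.8, 21.0 and 26.8 FPKM. Its values were 22.1, 25.5 and 19.2 FPKM in BL, 28.4, 27.8 and 23.6 FPKM in GL and 16.4, 29.4 and 36.8 FPKM in RL. RL held both the lowest and the highest IRF1 level of the 12 libraries, and the log2 differences from control were -0.12, 0.19 and 0.26 (adjusted p = 1, 0.872 and 1, edgeR). IRF7, the regulator that amplifies type I interferon expression, had 5.17, 5.68 and 7.94 FPKM in control, 5.53, 2.88 and 8.66 in BL, 7.30, 8.42 and 5.60 in GL and 6.73, 9.53 and 10.3 in RL. RL had the highest IRF7 mean, 1.41 times the control mean, and overlapped control through RL replicate 1. Its log2 difference from control was 0.57 ± 0.36 (adjusted p = 1, edgeR), with a 95% interval from -0.21 to 1.35.

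MX1, a GTPase that blocks virus replication and a standard readout of interferon exposure, was present in every cornea. It had 17.6, 27.6 and 26.9 FPKM in control, 20.2, 20.3 and 34.7 in BL, 24.6, 26.0 and 25.5 in GL and 20.7, 18.5 and 27.3 in RL. The groups overlapped, the highest value again being BL replicate 3, and the log2 differences from control were 0.06, 0.13 and -0.05, each ± 0.25 (adjusted p = 1, 0.925 and 1, edgeR). The table also holds 2 entries described as Mx2, with summed levels of 16.0 to 32.7 FPKM, so reads of near-identical copies may be split between them and the MX1 value is uncertain. The table lists an IRF1 copy apart from IRF1, at 0 to 0.339 FPKM in the 12 libraries.

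The remaining genes of the pathway were followed in 12 lists of 151 genes in all, of which 121 were found and 114 tested. The edgeR test called 0 of 114 in every comparison. At an unadjusted p under 0.05 the edgeR counts were 1 in BL, 4 in GL and 2 in RL against control, or 0.877%, 3.51% and 1.75%, beside 3.26%, 8.1% and 4.74% of all tested genes. For BL against GL and for GL against RL the count was 10 each, or 8.77%, beside 14.9% and 8.6%, and for BL against RL it was 2, or 1.75%, beside 5.14%. Of the 114 genes, 61 in BL, 60 in GL and 63 in RL were above control by their fitted value, with median log2 differences of 0.01, 0.02 and 0.09. DESeq2 called 0 of 114 against control in BL, GL and RL, 0 for BL against RL, 3 for BL against GL and 2 for GL against RL, where its shares over all genes were 2.53% and 1.31%. By limma on log2(FPKM + 1), 0 were called in each comparison.

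At the top of the pathway, interferon transcripts were at or near 0. IFNB1 and IFNG had a count of 0 in all 12 libraries, which allows up to 3 fragments, or 0.177 to 0.281 CPM. The epithelial interferons IFNE and IFNK appeared in 1 library each, at 0.284 FPKM in a control and 0.158 in GL. Of 20 further entries described as interferon alpha, omega or lambda, picked by description after the table was seen, 5 had any count, and their summed level was above 0 only in GL replicate 2 (0.263 FPKM) and RL replicate 3 (0.608 FPKM). No ligand could be tested.

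Of the 6 receptor genes and 5 kinases and STATs tested, 0 were called by edgeR, and their mean levels began at 4.12 FPKM for JAK2. IFNGR2 averaged 33.7 FPKM, IFNGR1 32.5 and IFNAR1, a subunit of the type I interferon receptor, 20.8, with log2 differences from control between -0.14 and 0.23. Of the 6 receptor genes, 6 in BL, 4 in GL and 3 in RL had a fitted value above control. Their median log2 differences were 0.13, 0.07 and 0.08. Over the 114 pathway genes these numbers were 61, 60 and 63. The share of all tested genes above control was not counted, so little can be read from the receptor counts. JAK1 averaged 45.0 FPKM and STAT3 37.9. Of the other interferon regulatory factors, IRF2 averaged 21.4 FPKM and IRF3, the factor activated downstream of RIG-I, 20.9. IRF3 had log2 differences of -0.05, 0.02 and -0.19.

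Sensing machinery around RIG-I gave no called change either. DHX9 averaged 30.2 FPKM, the endosomal RNA receptor TLR3 6.21 and DHX58, a regulator of RIG-I and MDA5, 4.63. MAVS, the mitochondrial adaptor on which both sensors signal, ran from 5.43 to 7.95 FPKM. Of the adaptors and kinases IKBKE was highest, at 64.0 ± 5.54 FPKM in control, 60.6 ± 23.1 in BL, 40.0 ± 8.32 in GL and 49.2 ± 3.80 in RL (SD, n = 3). All GL and all RL values of IKBKE were below all controls, as were 10.8% and 6.16% of all tested genes, with log2 differences of -0.63 and -0.31 (adjusted p = 0.601 and 1, edgeR). TANK and AZI2, adaptors of the same kinases, averaged 17.8 and 24.4 FPKM.

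Of the other regulators of RIG-I ubiquitination, 0 of 9 tested were called by edgeR. The phosphatases PPP1CA and PPP1CC, which dephosphorylate RIG-I and MDA5, averaged 102 and 86.7 FPKM, and the ligase MEX3C 27.7 FPKM. RNF135, a further ligase of RIG-I, had 5.72, 7.26 and 3.79 FPKM in control, 5.76, 4.18 and 6.69 in BL, 11.3, 6.51 and 8.52 in GL and 7.32, 10.3 and 7.42 in RL. USP15, a deubiquitinase that acts on TRIM25, was picked after its values were seen. It had 14.3, 11.4 and 10.8 FPKM in control, 23.5, 15.3 and 13.8 in BL, 8.82, 8.86 and 6.77 in GL and 18.2, 8.28 and 12.1 in RL. Every USP15 value in BL was above every value in GL, as for 16.5% of all tested genes. DESeq2 called that difference (1.05 ± 0.28 on the log2 scale, adjusted p = 0.0188), as for 2.53% of all genes, whereas edgeR did not. BL and GL come from different library sets, so that difference cannot be told apart from the set.

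The enzymes that couple ISG15 to proteins were expressed at modest levels. UBA7, its activating enzyme, averaged 3.12 FPKM, with group means of 2.45 ± 1.36 in control, 4.60 ± 1.06 in BL, 2.29 ± 1.03 in GL and 3.13 ± 1.89 in RL (SD, n = 3). The BL difference of UBA7 from control, 0.91 on the log2 scale, had an adjusted p of 1 in edgeR. The conjugating enzyme UBE2L6 averaged 9.29 FPKM and the ligase ARIH1 24.3 FPKM, with log2 differences from control between -0.17 and 0.20. The feedback regulators PTPN11, PTPN2 and PIAS1 averaged 19.6, 19.5 and 17.7 FPKM and differed from control by no more than 0.26 in either direction.

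Antiviral effectors were the largest list, with 29 genes tested, and their medians were 0.01 in BL, -0.18 in GL and 0.22 in RL against control. Their most abundant members were SHISA5 at 39.3 FPKM, the RNA-editing enzyme ADAR at 30.5 and LGALS3BP at 14.0. RL replicate 1 had the highest level of the 12 libraries for 8 of the 29 effectors (27.6%), beside 10.8% of all tested genes. BL replicate 3 did for 5 (17.2%), beside 4.16%. Among them, RL replicate 1 stood at 9.97 FPKM for IFIT3 and 7.17 for EIF2AK2, the kinase PKR, against at most 6.30 and 4.78 FPKM in the other 11 libraries. Of the 8 effectors highest in RL replicate 1, OAS1, OAS2 and ISG20 were low even there, at 1.74, 0.336 and 0.910 FPKM. The same 2 libraries held the highest ISG15 values. RL replicate 1 held the highest IFIH1 and, by a small margin, the highest IRF9 (11.87 against 11.74 FPKM in GL replicate 1). It also held the lowest IRF1 of the 12 libraries and was lowest for 2 of the effectors. RL replicate 2 was highest for 4 effectors (13.8%, beside 8.0% of all tested genes), and RL replicate 3 was highest for 0 and lowest for 6. TRIM25 in RL replicate 1 was at 4.58 FPKM, beside 4.45 in each of the other RL libraries. Both RL replicate 1 and BL replicate 3 belong to the set of 5 libraries with many genes at low counts, and the part of that set in these levels was not tested.

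**Figure D4:**
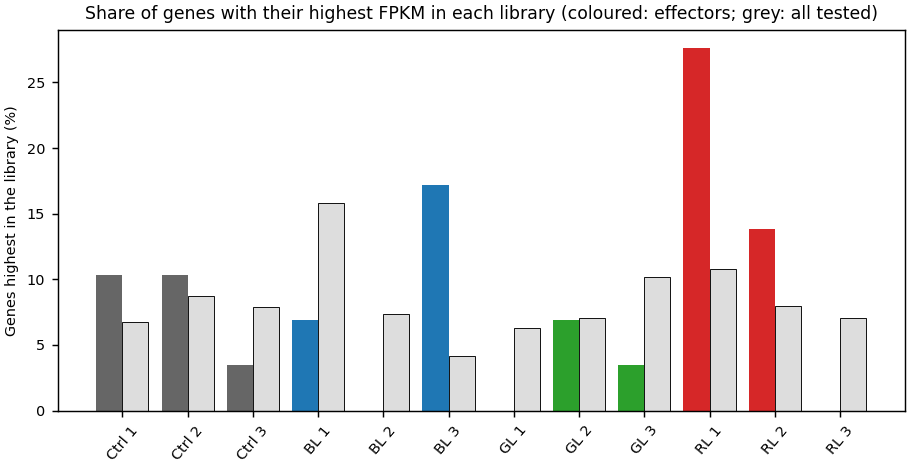
Share of genes (vertical axis, percent) whose highest FPKM of the 12 libraries fell in each library, for 29 antiviral effectors (coloured) and for all 18171 tested genes (grey). RL replicate 1 takes 27.6% of the effectors and BL replicate 3 17.2%, beside 10.8% and 4.16% of all genes.

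SAMD9, an interferon-regulated antiviral factor, had the lowest adjusted p of the pathway lists in BL against GL, GL against RL and GL against control, and was picked for that. Its values were 7.88, 5.29 and 7.33 FPKM in control, 12.2, 11.0 and 6.98 in BL, 4.31, 3.25 and 2.48 in GL and 11.0, 5.26 and 6.81 in RL. All 3 GL libraries were below all other 9 libraries. The share of all tested genes with that separation was not counted, and 10.8% had every GL library below every control. The adjusted p in edgeR was 0.126 against BL, 0.282 against RL and 0.479 against control. DESeq2 called SAMD9 lower in GL than in BL (adjusted p = 0.000332) and in RL (adjusted p = 0.0119). The shares that DESeq2 called over all genes in these comparisons were 2.53% and 1.31%, and BL and GL come from different library sets.

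Of the tripartite motif family, to which TRIM25 belongs, 19 genes were tested and 0 called by edgeR. DESeq2 called 2, picked out here for that: TRIM8 was lower in BL than in GL (log2 difference -0.74 ± 0.18, adjusted p = 0.00629) and TRIM47 lower in GL than in RL (-1.79 ± 0.46, adjusted p = 0.0116). TRIM29, a protein of stratified epithelia, was by far the most abundant, at 360.5 FPKM, with TRIM28, a co-repressor of transcription, at 54.9 and TRIM16 at 30.1. TRIM29 differed from control by -0.05, 0.42 and 0.27 on the log2 scale in BL, GL and RL. TRIM16 had 18.3, 21.3 and 26.0 FPKM in control and 28.6, 48.2 and 50.6 in RL, a log2 difference of 1.03 (adjusted p = 1, edgeR). All its RL libraries were above all controls, as for 2.65% of all tested genes. In BL 0 of the 19 genes were above all controls and 2 below, in GL 4 above and 2 below, and in RL 3 above and 2 below, to be read beside the shares of all tested genes given above for these separations. Interferon-induced antigen processing genes were led by B2M at 57.4 FPKM, WARS at 46.7 and PSMB10 at 10.2, and 0 of the 12 tested were called by edgeR.

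The 5 genes with a symbol whose levels ran most like TRIM25 over the 12 libraries were in none of the pathway lists. Those lists hold only 114 of the 18171 tested genes, so little can be read from this absence. The r of the genes in those lists is not given here, and some may lie above the values of the 8 other genes. Among 13243 genes with a mean of at least 1 FPKM, Pearson's r of log2(FPKM + 1) with TRIM25 was 0.898 for MPP7, 0.869 for TMTC2, 0.863 for TESK2, 0.856 for L3MBTL3 and 0.827 for APTX. Their Spearman's rho values were 0.818, 0.734, 0.853, 0.895 and 0.930. MPP7, a scaffold protein of cell junctions, averaged 7.85 ± 1.34 FPKM in control, 14.6 ± 1.52 in BL, 15.1 ± 2.57 in GL and 10.1 ± 2.49 in RL (SD, n = 3). TESK2, a kinase, averaged 4.66 ± 1.06, 8.17 ± 1.38, 7.64 ± 0.730 and 4.54 ± 0.977 FPKM in the same order. These r values were the highest of many, over libraries that share 4 groups, and serve as a description. Of the 8 other genes described here, STAT2 had the highest r with TRIM25, 0.302 at rank 2136, and IRF7 the lowest, -0.334 at rank 11664. The r of ISG15, IRF9, DDX58, IRF1, MX1 and IFIH1 lay between -0.08 and 0.117.

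Cornea tissue mixes cell types, and in such tissue fewer cells of a type and less RNA per cell cannot be told apart. Leukocyte markers, 11 of 12 found, summed to 9.77 to 12.7 FPKM in control, 11.3 to 14.3 in BL, 7.62 to 12.7 in GL and 10.9 to 17.8 in RL. Only 4 of them had a count in every library, the T cell marker CD3E was at 0 in all 12, and the macrophage marker CD68 alone gave 5.26 to 12.5 FPKM. Corneal epithelium markers summed to 10600 to 15100 FPKM in control, 11400 to 13900 in BL, 15600 to 16600 in GL and 13100 to 18300 in RL. Every GL sum was thus above every control and BL sum, but KRT12 alone gave most of each sum. Of the 6 markers, 4 had every GL library above every control, beside 7.67% of all tested genes. PAX6 alone had every GL library below every control, beside 10.8%, with 283, 222 and 239 FPKM in GL against 289 to 336 in control. Lens transcripts summed to 5330 to 8490 FPKM in control, 2260 to 17200 in BL, 863 to 3470 in GL and 827 to 3040 in RL. Every GL and RL sum was thus below every control sum, while BL replicate 1 was above and BL replicates 2 and 3 below. Of the 9 lens genes, 9 had every GL library and 8 every RL library below every control. The shares of all tested genes were 10.8% and 6.16%. The part of any of these transcripts in the TRIM25 levels was not tested.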

How the data were processed

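The deposited table covers 12 rabbit cornea libraries made with a SMARTer mRNA kit, per the labels' protocols. The authors deposited 2 columns a library, estimated counts and FPKM. Sources used here name no aligner, counter or rabbit build. The submitters' processing notes list GRCm38 and mm10, which are mouse builds, while the table's genes lie on rabbit sequences. The deposited counts are whole numbers but pile up at steps of about 3.83, so they were handled like expected counts; FPKM values of 0.0001, listed where the count is 0, were read as 0. Total counts were 40.9 to 64.7 M. Counting error sets a floor of 3 fragments, and intervals and floors cover counting or fitted error only.

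Groups came from the labels. The 18171 genes kept by filterByExpr were fitted with edgeR 4.0.16 (R 4.3.3; TMM scaling, 4 group means, quasi-likelihood test), with Benjamini-Hochberg adjustment over all genes tested and a threshold of 0.05; SE is the log2 difference divided by the square root of F, and intervals use the fit's total degrees of freedom. DESeq2 1.42.0 and limma 3.58.1 on log2(FPKM + 1) were alternatives. The code was tested on simulated data with a smaller spread than these libraries and without library sets or count steps, so that test covers the code only. The members and lists were chosen with earlier results of these data known. All 9 members were named, and of each pathway list the 3 genes highest in mean FPKM, and the 5 genes with the highest r with TRIM25; other genes named were chosen after their values were seen. Some genes that this rule selects are not reported here. Gene identifiers of 8 of the 9 matched RefSeq (mOryCun1.1), 6 under the same symbol; DDX58 is RIGI there and MX1 is LOC100359014. Sequences and promoter motifs were not analysed here.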

Additional observations from a re-analysis of the deposited data

How the results depend on the processing

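The number of the 9 genes called was 0 in all 6 comparisons under every alternative except DESeq2 and leaving out Ctrl replicate 1, which each gave 1 (TRIM25) in BL and 1 in GL against control; over the fits without 1 library the number ran from 0 to 1 in both. Numbers over all genes moved far more. In the order BL, GL and RL against control, BL against GL, BL against RL and GL against RL, edgeR called 3, 10, 2, 9, 2 and 13 genes. DESeq2 called 36, 179, 84, 443, 84 and 234. Fitting only the groups compared gave 7, 28, 5, 7, 3 and 3, and leaving out the 3 libraries with photoreceptor transcripts 1, 1, 2, 0, 1 and 2. limma gave 3, 10, 1, 8, 6 and 20 with a pseudocount of 1 and 5, 15, 3, 15, 9 and 17 with 0.1. A library set term gave 0 for BL against GL, a minimum mean FPKM of 1 gave 14 there, and for BL against RL no filter gave 5 and counts divided by the step 4. Only the 7 other libraries, an alternative chosen after seeing the data, gave 5 for GL and 9 for RL against control and 8 for GL against RL. Leaving out 1 library gave 2 to 10, 3 to 21, 2 to 9, 3 to 22, 2 to 5 and 5 to 25. The cause was not tested.

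With the replicate number as a replicate block, 2, 11, 3, 9, 2 and 9 genes were called and none of the 9. Same-numbered libraries correlated at -0.074 to 0.24 and others at -0.16 to 0.13, so the numbers were not read as pairs. Of the 54 log2 differences of the 9 genes, 27 kept their sign in every alternative and 27, none over 0.37 in size, turned in at least 1. Depth limits ISG15 most.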
